A study of Mus musculus with 7 samples.

Results

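The genes described here are 10 long noncoding RNAs chosen by name. Of these, 4 act in the nucleus (Malat1, Neat1, Kcnq1ot1 and Miat) and 6 are host genes whose introns carry small nucleolar RNAs, or snoRNAs (Gas5, Snhg1, Snhg5, Snhg6, Snhg8 and Snhg12). A row under the gene's own symbol was present for 7 of the 10 among the 34592 rows of the count table, and all 7 passed the filter on low counts of edgeR, as did 17389 rows in total. Kcnq1ot1, Snhg6 and Snhg8, without such a row, were not analysed here.

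Chunks of 7 mouse Group 3 medulloblastomas (G3 MBs) had been sequenced for their RNA to compare tumors with and without enforced expression of human WDR11, a gene that codes for a WD repeat protein. All of them grew from tumorsphere line 19568. This line was derived from a tumor of cerebellar granule neuron progenitors of Trp53-/-; Cdkn2c-/- mice, into which Myc-IRES-GFP had been brought by a retrovirus. For 4 tumors (WDR11OE) the tumorspheres were infected with a pCDH-EF1 lentivirus that carries WDR11 and copGFP, and for 3 tumors (control) the protocol names the lentivirus with copGFP alone, whereas the labels give the controls the treatment none. In both groups the infected cells were implanted without sorting, and CD1 nu/nu mice received them in the cortex and were killed when moribund. The labels name tumorspheres as the source of each sample, but their extraction protocol names tumor chunks, which is how the samples are described here. All 7 go back to 1 line, only some of the implanted cells carried the lentivirus, and a tumor chunk can also hold cells of the host. The sample codes of the controls and of the WDR11OE tumors come from separate series, so that a difference in handling between the series and the difference in treatment cannot be told apart. Total counts were 35463784, 41397427 and 33417175 in control replicates 1 to 3 and 42252257, 85371523, 32116095 and 87141305 in WDR11OE replicates 1 to 4. The replicate numbers only name the tumors.

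The count table has a row for human WDR11 beside the row for mouse Wdr11, and this row did not separate the groups. Human WDR11 had 73, 92 and 102 counts in control replicates 1 to 3 and 185, 169, 99 and 57 counts in WDR11OE replicates 1 to 4. Scaled by library size to CPM, these were 2.03, 2.19 and 3.13 CPM in the controls and 4.38, 2.11, 3.05 and 0.624 CPM in the tumors labelled WDR11OE. WDR11OE replicate 1 was above every control, replicates 2 and 3 lay within the range of the controls, and replicate 4 was below it. For this row the log2 fold change was 0.05 (standard error 0.58, edgeR adjusted p = 0.961). How reads were assigned to this row is not given in the sources used here, and a row for human WDR11 with counts in the controls may not measure the transgene alone. Mouse Wdr11 was at 58.9, 58.3 and 59.3 CPM in the controls and at 66.8, 61.0, 65.7 and 68.9 CPM in the tumors labelled WDR11OE, a log2 fold change of 0.16 that did not pass the threshold (edgeR adjusted p = 0.091). The groups are therefore called by their labels below, and each direction is that between the labelled groups.

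Long noncoding RNAs are transcribed and often spliced and polyadenylated like messenger RNAs, but do not code for proteins. Malat1 gathers in nuclear speckles, which hold splicing factors, and Neat1 is the RNA on which paraspeckles are built. Host genes of the Gas5 and Snhg type release snoRNAs from their introns, which guide the chemical modification of ribosomal RNA, while the spliced exons of many of them begin with a run of pyrimidines, are taken up by ribosomes and are removed by nonsense-mediated decay. A log2 fold change here is that of WDR11OE minus control, and an edgeR adjusted p is from the two-sided quasi-likelihood test over 17389 genes with Benjamini-Hochberg adjustment, called at 0.05. The leading gene of a list is the one with the highest mean CPM over all 7 tumors, which is not scaled by length and need not be the highest in each group.

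All 4 host genes measured rose in the tumors labelled WDR11OE, by 1.45-fold to 1.95-fold, and the 3 nuclear RNAs did not pass the test. The 4 members called higher stand beside 18.1% of all genes tested called higher, and no member was called lower, beside 15.8% of all genes. For the 7 members, edgeR gave 0 lower calls at an unadjusted p under 0.05 as well, and limma voom and DESeq2 also gave 0. The groups did not overlap, with WDR11OE higher, for the same 4 hosts, beside 23.5% of all genes, and the groups of no member were apart with WDR11OE lower, beside 19.1% of all genes. The median log2 fold change was 0.77 over the 4 hosts and 0.08 over all genes tested, and that of the hosts was 0.50 with the trend of log2 CPM on GC content removed. Chunks of tumor mix cells, so more cells of a type and more RNA per cell cannot be told apart in any of these values.

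Gas5 (ENSMUSG00000053332), the host of a cluster of snoRNAs and a gene named for its accumulation in arrested cells, lies on chromosome 1 of NCBIM37 from 162964553 to 162968670 on the plus strand. Its level was 331, 270 and 334 CPM in control replicates 1 to 3, and 518, 488, 440 and 449 CPM in WDR11OE replicates 1 to 4. Each tumor labelled WDR11OE was above the highest control. The means were 312 ± 36.0 CPM (SD, n = 3) and 474 ± 36.1 CPM (SD, n = 4), so that the difference exceeded the spread within either group. The log2 fold change was 0.61 (standard error 0.11, edgeR adjusted p = 0.0055; two-sided exact permutation test, p = 0.0286, the smallest that the 35 splits of 7 tumors can give). With the trend of log2 CPM on GC content removed it was 0.36 and no longer past the threshold (edgeR adjusted p = 0.0598).

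Snhg1 (ENSMUSG00000090867), which carries the snoRNAs once known as those of U22 host gene, lies on chromosome 19 from 8797986 to 8800932 on the plus strand. It was measured at 79.2, 69.4 and 89.1 CPM in control replicates 1 to 3, and at 154, 156, 147 and 149 CPM in WDR11OE replicates 1 to 4. The values of the tumors labelled WDR11OE were tightly grouped, with a highest value 1.06 times the lowest, and all were above the controls, for which this ratio was 1.28. Snhg1 had a log2 fold change of 0.93 (standard error 0.09, edgeR adjusted p = 0.00105; two-sided exact permutation test, p = 0.0286). It was 0.56 with the GC trend removed and still past the threshold (edgeR adjusted p = 0.0108).

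Snhg5 (ENSMUSG00000032424), a host of SNORD50 copies, lies on chromosome 9 from 88415894 to 88417721 on the minus strand. It was at 55.5, 49.0 and 60.9 CPM in control replicates 1 to 3, and at 104, 106, 116 and 104 CPM in WDR11OE replicates 1 to 4. WDR11OE replicate 3 was the highest of its group, and the groups were far apart. Snhg5 had a log2 fold change of 0.96 (standard error 0.09, edgeR adjusted p = 0.00104; two-sided exact permutation test, p = 0.0286), close to that of Snhg1, and which of these was larger changed between settings. With the trends on GC content and exon length removed it was 0.56 and still past the threshold (edgeR adjusted p = 0.00705).

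Snhg12 (ENSMUSG00000086290), a host of H/ACA snoRNAs, lies on chromosome 4 from 131864593 to 131866939 on the plus strand. It was at 29.5, 27.7 and 33.8 CPM in control replicates 1 to 3, and at 47.8, 46.6, 38.8 and 42.3 CPM in WDR11OE replicates 1 to 4. WDR11OE replicate 3 was the lowest of its group and still above control replicate 3, the highest of the controls. Its log2 fold change was 0.53 (standard error 0.11, edgeR adjusted p = 0.00804; two-sided exact permutation test, p = 0.0286). The call was lost without WDR11OE replicate 1 (log2 fold change 0.45, edgeR adjusted p = 0.0516) and without WDR11OE replicate 2 (log2 fold change 0.46, edgeR adjusted p = 0.051). It was also lost with the trends on GC content and exon length removed, where the log2 fold change was 0.25 (edgeR adjusted p = 0.091).

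The hosts were also compared with and without the tumors whose human WDR11 row was not above the controls, a choice made after seeing the data. With WDR11OE replicates 2, 3 and 4 left out, the remaining tumor was assumed to vary like the controls, and 2 members were called higher. Snhg1 (log2 fold change 0.97, edgeR adjusted p = 0.0397) and Snhg5 (log2 fold change 0.93, edgeR adjusted p = 0.0375) were past the threshold. Gas5 had a log2 fold change of 0.75 (edgeR adjusted p = 0.0688) and Snhg12 one of 0.68 (edgeR adjusted p = 0.0653). In this fit 435 genes were called higher and 706 lower among all genes tested, against 3150 and 2744 with all 7 tumors.

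**Figure D1:**
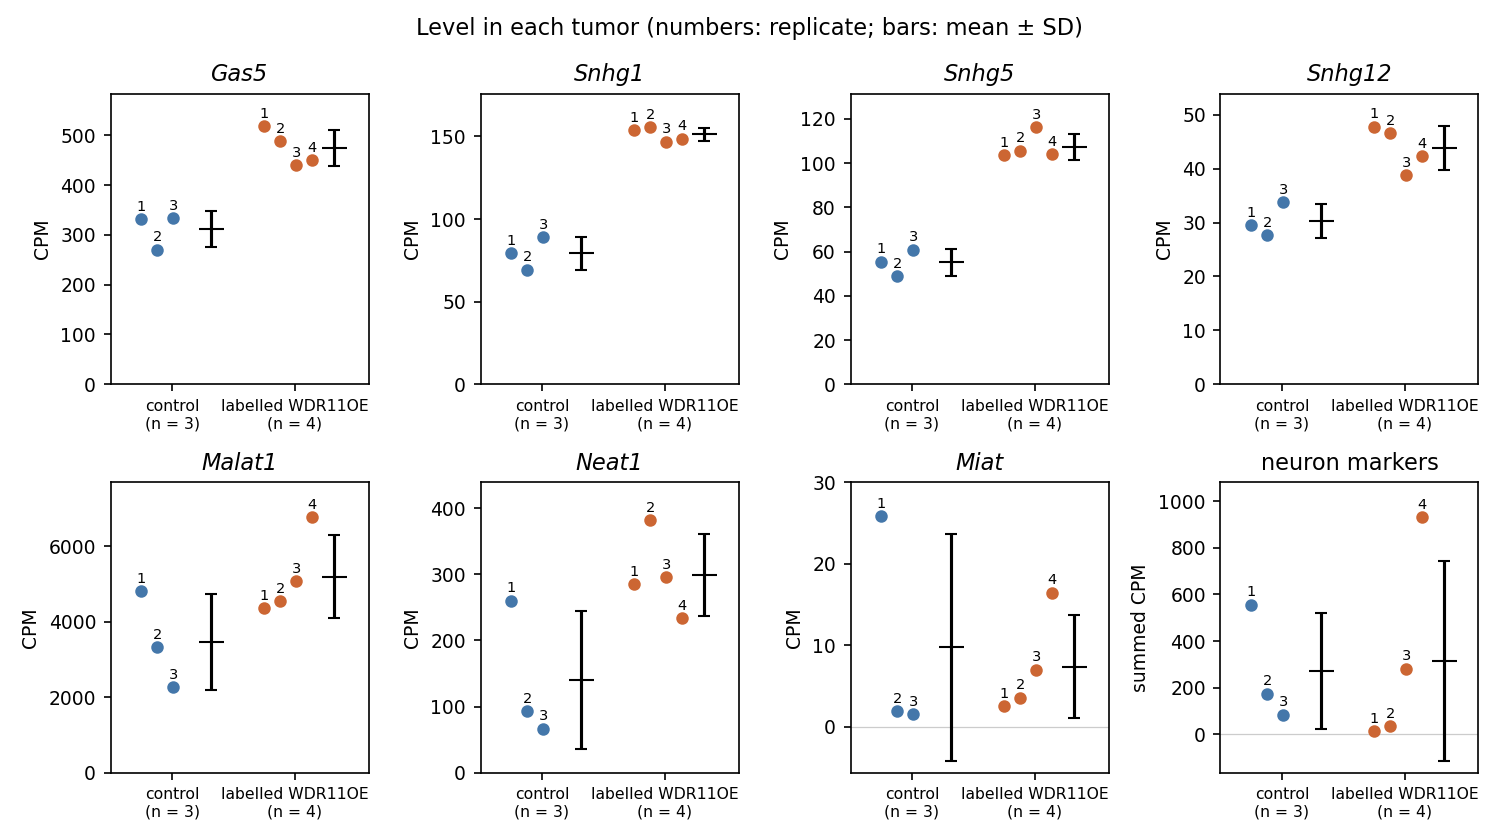
Level of the 7 measured members, in CPM, and summed CPM of 14 neuron markers, in each of 3 control tumors and 4 tumors labelled WDR11OE, where points are tumors with their replicate number and bars are the mean ± SD. For Gas5, Snhg1, Snhg5 and Snhg12 every tumor labelled WDR11OE lies above every control, while for Malat1, Neat1 and Miat control replicate 1 lies above at least 1 of them.

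RNA of other cell types differed between tumors as well. All 9 markers of skeletal muscle were called higher, and their summed level was 4.45, 2.24 and 2.08 CPM in control replicates 1 to 3, and 90.4, 49.7, 128 and 41.8 CPM in WDR11OE replicates 1 to 4. Their leading gene, Myh4, was at 21.7 ± 11.6 CPM (SD, n = 4) in the tumors labelled WDR11OE, and Mb had a count of 0 in each control. Of 8 endothelial markers 3 were called lower, beside 15.8% of all genes, and 3 had a log2 fold change above 0, with Flt1 the leading gene (log2 fold change −0.74, edgeR adjusted p = 0.00151), and the summed level was 125, 163 and 147 CPM in the controls and 112, 102, 102 and 102 CPM in the tumors labelled WDR11OE. Of 8 astrocyte markers, S100b was called higher (log2 fold change 0.94, edgeR adjusted p = 0.00359), beside 18.1% of all genes, 4 of the 8 had a log2 fold change below 0, and the leading gene Slc1a2 was not called (log2 fold change −1.23, edgeR adjusted p = 0.366). Of the 8 oligodendrocyte, 10 microglial and 5 erythroid markers, led by Mbp, C1qa and Hbb-b1, edgeR called 0, also at an unadjusted p under 0.05, as did limma voom and DESeq2. Log2 fold changes were below 0 for 8, 6 and 5 of these markers, with medians of −0.19, −0.12 and −1.30. The summed erythroid level was 1123, 99.0 and 164 CPM in control replicates 1 to 3, and 378, 231, 23.6 and 55.3 CPM in WDR11OE replicates 1 to 4. Among 13 tested markers of G3 MBs and granule neuron progenitors, Myc (log2 fold change −1.40) and Trp53 (log2 fold change −0.56) were called lower, beside 15.8% of all genes, and a retroviral copy of Myc is part of the model. Myc was at 1109, 821 and 812 CPM in control replicates 1 to 3, and at 390, 431, 278 and 289 CPM in WDR11OE replicates 1 to 4. Atoh1 had a count of 0 in all 7 tumors and Otx2 was under 1 CPM in each, while Trp53 and Cdkn2c, the genes knocked out in the model, both had counts in every tumor, and which of their exons these come from was not tested. The 9 muscle markers and 3 of the 8 endothelial markers thus moved with the labelled groups in which the 4 hosts rose, and their part in the values of the hosts was not tested.

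Per kilobase (kb) of exon, the scale used here to compare levels between members, the order of the members was the same in both groups. In the controls the mean level was 497 ± 182 CPM per kb for Malat1, 82.9 ± 9.58 for Gas5, 55.5 ± 6.03 for Snhg5, 26.9 ± 3.35 for Snhg1, 18.6 ± 1.92 for Snhg12, 6.74 ± 5.04 for Neat1 and 1.11 ± 1.59 for Miat (CPM per kb, SD, n = 3). In the tumors labelled WDR11OE it was 744 ± 157 CPM per kb for Malat1, 126 ± 9.61 for Gas5, 108 ± 5.96 for Snhg5, 51.3 ± 1.41 for Snhg1, 27.0 ± 2.53 for Snhg12, 14.4 ± 2.97 for Neat1 and 0.842 ± 0.726 for Miat (CPM per kb, SD, n = 4). No neighbours in this order overlapped within the controls or within the tumors labelled WDR11OE, although Gas5 and Snhg5 came close in the latter, with a lowest value of 117.1 CPM per kb for Gas5 and a highest of 117.0 CPM per kb for Snhg5. The exon length behind these levels is that of all annotated transcripts merged. For Snhg1 it is 2947 bases, which is its whole span with the introns, because a transcript that retains the introns is annotated, and for Gas5 it is 3760 bases over 25 transcripts. For Snhg12 it is 1626 bases over 6 transcripts. Spliced host RNA is shorter than this, so the levels per kb of Gas5, Snhg1 and Snhg12 may be low estimates of it. The length of Neat1 is 20771 bases, with 4 transcripts merged. Not scaled by length, Neat1 averaged 140 CPM in the controls and 299 CPM in the tumors labelled WDR11OE. Both means were above those of Snhg1, Snhg5 and Snhg12, so the place of Neat1 in this order depends on the length used.

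The other noncoding snoRNA hosts were taken from a list of 15 genes, of which 13 had a row and 12 were tested. Of the 12, 8 were called higher (18.1% of all genes) and the other 4 were not called, all 12 log2 fold changes were above 0, and their median was 0.75. The groups did not overlap, with WDR11OE higher, for 10 of the 12 (23.5% of all genes). Several of these rows carry an older name and were matched through RefSeq synonyms. The largest log2 fold changes among the called genes were 2.00 for Snhg18 (standard error 0.49, edgeR adjusted p = 0.0185), 1.06 for Snhg20 (standard error 0.13, edgeR adjusted p = 0.00158) and 0.85 for Snhg16 (standard error 0.11, edgeR adjusted p = 0.0016). Zfas1, the leading gene, averaged 79.0 ± 6.67 CPM over the controls and 139 ± 9.28 CPM over the tumors labelled WDR11OE (SD, n = 3 and 4; log2 fold change 0.81, edgeR adjusted p = 0.00111). Dancr had a log2 fold change of 0.07 (edgeR adjusted p = 0.528), and Snhg11, also a neuron marker, one of 1.26 with a standard error of 1.69. Dancr is named here after its value was seen.

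**Figure D2:**
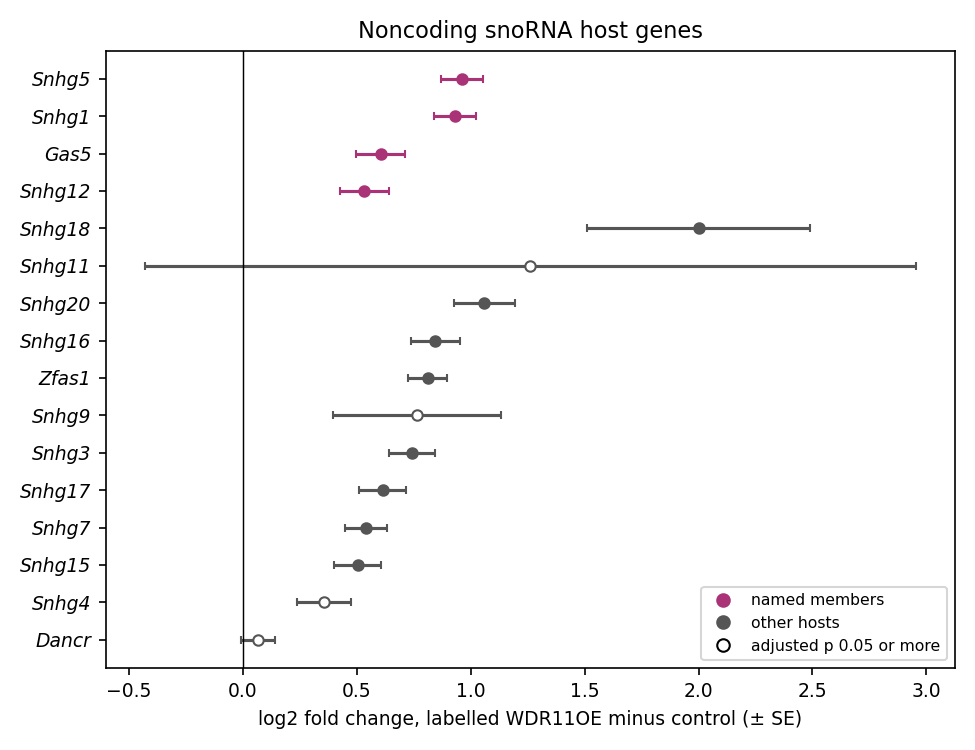
Log2 fold change of each tested noncoding snoRNA host, tumors labelled WDR11OE (n = 4) minus control (n = 3), with its standard error as a bar; filled points have an edgeR adjusted p under 0.05. All 16 points lie above 0, and 12 are filled, the 4 named hosts among them.

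Protein-coding genes can also carry snoRNAs in their introns. Of 22 such hosts, many of them genes of ribosomal proteins and translation factors, 4 were called higher, beside 18.1% of all genes tested, and 18 were not called, and the median log2 fold change was 0.25. Eif4a2, an RNA helicase of translation initiation, had the largest (log2 fold change 0.90, edgeR adjusted p = 0.000917), followed by Rpl10 (log2 fold change 0.61, edgeR adjusted p = 0.0142) and Rps3 (log2 fold change 0.60, edgeR adjusted p = 0.0186). Eef2, the leading gene, averaged 3383 ± 314 CPM over the controls and 2974 ± 503 CPM over the tumors labelled WDR11OE (SD, n = 3 and 4; edgeR adjusted p = 0.462). Whether the shift of the noncoding hosts differs from that of the coding hosts was not tested.

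The snoRNAs carried by the 4 hosts were nearly all at 0 in the counts. The annotation places 23 snoRNAs within the spans of the 4 hosts, 9 in Gas5, 8 in Snhg1, 2 in Snhg5 and 4 in Snhg12. A row was present for 16 of these, and 15 had a count of 0 in all 7 tumors. The floor set by 3 counts was between 0.0329 and 0.0924 CPM, depending on the tumor, and covers counting error only. Each of the 15 lies wholly within an annotated exon of its host, on the same strand, because transcripts that retain the introns are annotated. The same held across the table. Of the 239 snoRNA rows, 49 lie wholly within an exon of another gene on their strand, and all 49 (100%) were at 0 in all 7 tumors. Of the 179 rows outside such exons, 25 (14%) were at 0, and of the 11 partly within one, 3 (27.3%) were. A read that falls on both a snoRNA and a host exon has more than 1 gene to go to, and how the counting treated such reads is not given in the sources used here and was not tested. The zeros therefore say nothing about whether these snoRNAs were made.

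Snora16a (ENSMUSG00000065097), in Snhg12, was the only snoRNA of the 4 hosts with counts and the only one with a row that lies outside the annotated exons of its host. It was at 5.11, 3.91 and 7.26 CPM in control replicates 1 to 3, and at 6.39, 6.46, 5.64 and 6.33 CPM in WDR11OE replicates 1 to 4. The lowest and the highest values were both those of controls, so the groups overlapped. Its log2 fold change of 0.19 (standard error 0.22, edgeR adjusted p = 0.553) did not pass the threshold, while that of its host did, and the difference between them was not tested. Its sequence is shown beside that of Snord47 of Gas5, a box C/D snoRNA with a count of 0 in all 7 tumors, as the pair shows the 2 classes of snoRNA that these hosts release. Both were read from NCBIM37 on the plus strand, Snord47 at chr1:162968213-162968289 and Snora16a at chr4:131865380-131865515. Capitals mark the letters TGATGA and CTGA in Snord47, the letters of box C and box D, and the last ACA of Snora16a, the letters of the ACA box.
Snord47: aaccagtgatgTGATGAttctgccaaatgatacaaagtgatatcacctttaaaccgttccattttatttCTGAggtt
Snora16a: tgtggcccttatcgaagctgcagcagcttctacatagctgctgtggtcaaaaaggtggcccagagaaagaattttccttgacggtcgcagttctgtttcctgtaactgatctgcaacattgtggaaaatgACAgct

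**Figure D3:**
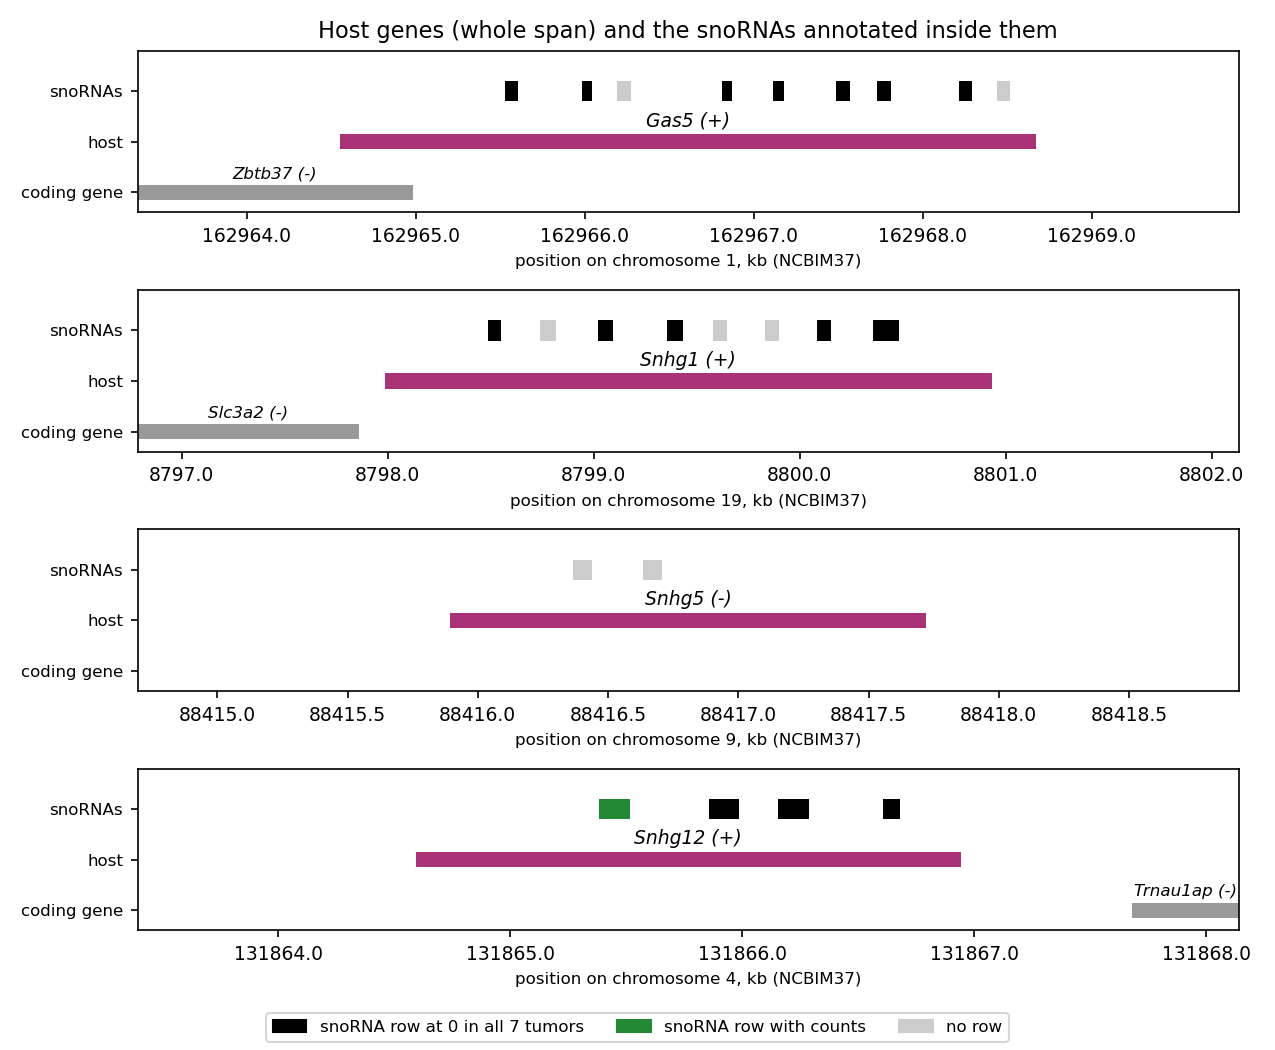
Span of Gas5, Snhg1, Snhg5 and Snhg12 with the snoRNAs annotated inside them and the coding genes in the drawn range, by position in kb on NCBIM37, with the strand in brackets. Of the 23 snoRNAs, 15 have a row at 0 in all 7 tumors (black), 1 has counts (green) and 7 have no row (grey).

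Genes beside the hosts did not share 1 direction. Slc3a2, the heavy chain of an amino acid transporter, starts 127 bases from Snhg1 on the opposite strand. It was at 128, 98.0 and 123 CPM in control replicates 1 to 3, and at 81.8, 95.7, 77.7 and 79.7 CPM in WDR11OE replicates 1 to 4, so that it fell (log2 fold change −0.47, standard error 0.12, edgeR adjusted p = 0.0183) where Snhg1 rose. Wdr74, which lies 9397 bases from the other end of Snhg1, rose (log2 fold change 0.30, edgeR adjusted p = 0.043). Zbtb37 overlaps the start of Gas5 on the opposite strand and averaged 22.7 ± 2.84 CPM over the controls and 23.0 ± 2.27 CPM over the tumors labelled WDR11OE (SD, n = 3 and 4; log2 fold change 0.02, edgeR adjusted p = 0.917). The strand setting of the counting is not given in the sources used here, so reads in the overlap of Gas5 and Zbtb37 cannot be told apart. Serpinc1, the nearest coding gene before Gas5 that does not overlap it, was under 1 CPM in every tumor (edgeR adjusted p = 0.053). Trnau1ap, a gene of selenoprotein synthesis whose end lies 739 bases from that of Snhg12 on the opposite strand, rose from a mean of 20.1 ± 0.726 CPM to 30.8 ± 3.13 CPM (SD, n = 3 and 4), or by a log2 fold change of 0.62 (edgeR adjusted p = 0.00381), close to that of Snhg12. Rab42-ps, on the other side of Snhg12, was not tested, and beside Snhg5 neither Syncrip (log2 fold change 0.21, edgeR adjusted p = 0.126) nor Zfp949 (log2 fold change 0.21, edgeR adjusted p = 0.341) passed the threshold.

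The sequences around the starts of the 4 hosts are shown with those of Malat1 and Miat. These last were not called, although the log2 fold change of Malat1 (0.58) was close to that of Gas5 (0.61). Whether the sequences bear on the changes was not tested. RefSeq promoters on GRCm38.p6 were matched for 6 of the 7 measured members, with 2 starts for Gas5, and Neat1 was not matched. Each line holds 40 bases before the annotated start and the 40 bases from it. Capitals mark TATANA, searched on both strands in the 40 bases before the start, and the longest run of C and T among the 5 bases before the start and the 25 bases from it. The windows are chr1:161035126-161035205 on the plus strand for Gas5 start 2, chr1:161034561-161034640 on the plus strand for Gas5 start 1, chr19:8723447-8723526 on the plus strand for Snhg1, chr9:88522858-88522937 on the minus strand for Snhg5, chr4:132308638-132308717 on the plus strand for Snhg12, chr19:5802633-5802712 on the minus strand for Malat1 and chr5:112228909-112228988 on the minus strand for Miat.
Gas5 start 2: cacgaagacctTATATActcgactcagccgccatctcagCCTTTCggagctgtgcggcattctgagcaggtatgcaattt
Gas5 start 1: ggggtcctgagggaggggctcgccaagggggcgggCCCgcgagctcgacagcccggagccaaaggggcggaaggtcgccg
Snhg1: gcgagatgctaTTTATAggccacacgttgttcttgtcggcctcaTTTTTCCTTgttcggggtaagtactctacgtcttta
Snhg5: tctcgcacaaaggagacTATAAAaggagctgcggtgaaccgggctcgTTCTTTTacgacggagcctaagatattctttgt
Snhg12: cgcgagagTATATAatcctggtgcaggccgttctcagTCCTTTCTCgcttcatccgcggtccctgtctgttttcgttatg
Malat1: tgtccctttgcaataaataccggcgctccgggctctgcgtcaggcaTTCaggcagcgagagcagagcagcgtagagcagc
Miat: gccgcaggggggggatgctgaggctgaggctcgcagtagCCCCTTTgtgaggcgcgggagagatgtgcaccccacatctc

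TATANA was present before a start of all 4 hosts, and before that of neither Malat1 nor Miat. In Snhg1 it is on the opposite strand. Among all 32851 promoters of the table, 4.85% hold TATANA in these 40 bases. In a narrower window, from 40 to 20 bases before the start, it was found for Gas5 start 2, Snhg1 and Snhg12 but not for Snhg5, beside 3.6% of all promoters. The wider window was chosen after the sequences were seen. The run of C and T was 9 bases long in Snhg1 and in Snhg12, a length that 6.69% of all promoters reach. It was 7 bases in Snhg5 and in Miat (16.3% of all promoters), 6 bases at Gas5 start 2 (26.1%) and 3 bases at Gas5 start 1 and in Malat1. These matches are letters in a window and no sites of binding.

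Of the nuclear RNAs, edgeR called none of the 3 that were measured, limma voom and DESeq2 also gave 0 calls, and at an unadjusted p under 0.05 edgeR gave 1, that of Neat1. Malat1 (ENSMUSG00000092341) lies on chromosome 19 from 5795690 to 5802671 on the minus strand. It was at 4808, 3320 and 2276 CPM in control replicates 1 to 3, and at 4360, 4555, 5076 and 6776 CPM in WDR11OE replicates 1 to 4. Control replicate 1 was above WDR11OE replicates 1 and 2, so the groups overlapped, and WDR11OE replicate 4 was the highest of all. The log2 fold change was 0.58 (standard error 0.29, edgeR adjusted p = 0.172; two-sided exact permutation test, p = 0.114), close to that of Gas5 but with a standard error of 0.29 against 0.11. Gm20417, annotated on the opposite strand within Malat1, averaged 1.10 ± 0.492 CPM over the controls (SD, n = 3; edgeR adjusted p = 0.948), and reads of this pair cannot be told apart.

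Neat1 (ENSMUSG00000092274) lies on the same strand of chromosome 19, from 5824708 to 5845478. It was at 260, 93.3 and 66.8 CPM in control replicates 1 to 3, and at 285, 382, 295 and 233 CPM in WDR11OE replicates 1 to 4. Control replicate 1 stood with the tumors labelled WDR11OE, above replicate 4, and the other controls were far below. Neat1 had a log2 fold change of 1.09 (standard error 0.46, edgeR adjusted p = 0.107; two-sided exact permutation test, p = 0.0571). Without control replicate 1 it was 1.90 and past the threshold (edgeR adjusted p = 0.00464). It was also past the threshold with the trend on exon length removed (log2 fold change 1.48, edgeR adjusted p = 0.0374), and over all alternatives the edgeR adjusted p ranged from 0.000864 to 0.368. Frmd8, the coding gene next to Neat1 at higher coordinates, was not called (log2 fold change −0.20, edgeR adjusted p = 0.156).

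Miat (ENSMUSG00000086878), a nuclear RNA that is abundant in neurons, lies on chromosome 5 from 112642248 to 112657968 on the minus strand. It was at 25.8, 1.91 and 1.53 CPM in control replicates 1 to 3, and at 2.49, 3.56, 6.99 and 16.5 CPM in WDR11OE replicates 1 to 4. Control replicate 1 was the highest of all tumors, and the other controls were the lowest. The log2 fold change of −0.40 (standard error 1.08, edgeR adjusted p = 0.811; two-sided exact permutation test, p = 0.743) turned to 2.10 without control replicate 1. The summed level of 14 neuron markers was 557, 175 and 84.7 CPM in control replicates 1 to 3, and 15.0, 34.3, 282 and 932 CPM in WDR11OE replicates 1 to 4. Miat and the neuron markers were thus highest in the same 3 tumors, control replicate 1 and WDR11OE replicates 3 and 4. Across the 7 tumors the log2 levels of both had a Pearson correlation of 0.738, which is a description of libraries that share their groups and depth. None of the 14 markers was called by edgeR, 0 passed at an unadjusted p under 0.05, and limma voom and DESeq2 gave 0, and Snhg11 was the leading gene over all 7 tumors but not the highest in either group. Without these 3 tumors, a choice made after seeing the data, the log2 fold change was 0.81 for Miat (edgeR adjusted p = 0.0728), 2.05 for Neat1 (edgeR adjusted p = 0.000864), 0.67 for Malat1 (edgeR adjusted p = 0.0626) and 0.73 for Gas5 (edgeR adjusted p = 0.00789), and Snhg1, Snhg5 and Snhg12 stayed called. The tumors labelled WDR11OE left in this fit, replicates 1 and 2, share a number in their titles and may not be independent. Their chi-square over degrees of freedom, 22.6, was the lowest of all pairs. The biological coefficient of variation was 14.9% in this fit, against 34.6% with all 7 tumors, and its p-values may be too small. Cryba4, the coding gene 17545 bases from Miat, was higher in the tumors labelled WDR11OE (log2 fold change 2.04, edgeR adjusted p = 0.0124) at a mean of 2.70 ± 1.09 CPM (SD, n = 4), and C130026L21Rik, on the other side, was under 1 CPM (edgeR adjusted p = 0.316).

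The hosts and the nuclear RNAs differed in how much they varied within a group. In the controls the coefficient of variation was between 10.3% for Snhg12 and 12.5% for Snhg1 among the hosts, against 36.7% for Malat1, 74.7% for Neat1 and 143% for Miat. In the tumors labelled WDR11OE it was between 2.74% for Snhg1 and 9.38% for Snhg12, against 21.2% for Malat1, 20.6% for Neat1 and 86.2% for Miat. Pearson correlations of log2 CPM over the 7 tumors were between 0.911 and 0.989 for pairs of hosts, and a difference between groups that all of them share adds to each. The correlation of Malat1 was 0.808 with Neat1, 0.77 with Miat and between 0.431 and 0.607 with the hosts, while that of Neat1 was between 0.635 and 0.761 with the hosts and 0.535 with Miat, and that of Miat was between −0.0486 and 0.147 with the hosts. The genes whose pattern over the 7 tumors was most like that of Gas5 were Hspb11 (r = 0.998), Paip2b (r = 0.997) and Sec23a (r = 0.996), and for Malat1 they were the pseudogene 5330438D12Rik (r = 0.992), Rgs11 (r = 0.989) and Sorcs1 (r = 0.988).

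Other long noncoding RNAs, from a list of 25, were tested for 21 genes, of which 5 were called higher (18.1% of all genes), 1 lower (15.8% of all genes) and 15 not at all, with a median log2 fold change of 0.44 beside 0.08 over all genes. Mir17hg, the host of a microRNA cluster, rose from a mean of 46.0 ± 6.20 CPM to 125 ± 9.43 CPM (SD, n = 3 and 4), or by a log2 fold change of 1.45 (edgeR adjusted p = 0.000858). Dleu2 (log2 fold change 1.11, edgeR adjusted p = 0.00426) and Ftx (log2 fold change 0.97, edgeR adjusted p = 0.0082) were next among the called genes, and H19, the leading gene, was not called (edgeR adjusted p = 0.368). A list of 11 noncoding RNAs without a poly(A) tail had 0 rows matched.

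Genes for proteins that work with the members were called in both directions, as were 18.1% (higher) and 15.8% (lower) of all genes tested. Of 18 genes for snoRNP core and assembly proteins, 5 were called higher and 3 lower, among them Nop58 (log2 fold change 0.62, edgeR adjusted p = 0.00477) and Nop56 (log2 fold change 0.54, edgeR adjusted p = 0.00408) of box C/D particles, Znhit3 of their assembly (log2 fold change 0.63, edgeR adjusted p = 0.00372) and Gar1 of H/ACA particles (log2 fold change −0.63, edgeR adjusted p = 0.00959). Of 17 tested genes for paraspeckle proteins, which bind Neat1, 5 were called higher and 3 lower, among them Rbm3 (log2 fold change 0.98, edgeR adjusted p = 0.0479) and Smarca4 (log2 fold change −0.84, edgeR adjusted p = 0.00161), with Hnrnpk the leading gene (edgeR adjusted p = 0.234). Of 14 genes for speckle proteins, found where Malat1 gathers, 4 were called higher and 5 lower. Srsf5 (log2 fold change 1.05, edgeR adjusted p = 0.00161) and Srsf3 (log2 fold change 0.76, edgeR adjusted p = 0.00146) rose, Srrm2 fell (log2 fold change −0.97, edgeR adjusted p = 0.00498), and Srsf1, the leading gene, was not called (edgeR adjusted p = 0.0935). Of 14 genes for nonsense-mediated decay, which removes spliced host RNA, 2 were called higher and 5 lower. These included Magoh (log2 fold change 0.99, edgeR adjusted p = 0.00129) and Upf3b (log2 fold change 0.80, edgeR adjusted p = 0.00268) among the higher and Casc3 (log2 fold change −0.80, edgeR adjusted p = 0.00168) among the lower, while Smg1, the leading gene, was not called (edgeR adjusted p = 0.325). The median log2 fold changes of these lists were 0.17, 0.10, −0.20 and −0.17, beside 0.08 over all genes tested. In the domain of Kcnq1, where Kcnq1ot1 silences genes of the paternal copy, 11 genes were tested and Osbpl5 was called, lower (log2 fold change −0.59, edgeR adjusted p = 0.0391), with Cd81 the leading gene (edgeR adjusted p = 0.312).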

How the data were processed

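Total RNA of 7 tumors was sequenced. The study's methods describe stranded libraries, whereas the labels name the TruSeq RNA kit v2, whose standard form selects polyadenylated RNA and does not mark strand. The authors mapped reads to NCBIM37 (mm9), used HTSeq with GENCODE genes for counting, and the deposited table holds these counts without normalization. Total counts lay between 32116095 and 87141305, and pairs of tumors of a group differed by more than sampling noise (chi-square over degrees of freedom was 22.6 for the closest pair).

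The deposited counts were read into R 4.3.3. Genes that passed filterByExpr of edgeR 4.0.16 were scaled by TMM and fitted with the condition as the only term, with the quasi-likelihood test, two-sided, and Benjamini-Hochberg adjustment over 17389 genes (biological coefficient of variation 34.6%). The standard error is the log2 fold change divided by the square root of F. CPM used the TMM library size, and exact permutation tests used log2 CPM with a prior count of 2. Coordinates, exon length and GC content came from GENCODE M1 on NCBIM37, which matched 97.1% of rows. Alternatives included limma 3.58.1 with voom, the study's test, and DESeq2 1.42.0. The members and lists were chosen with earlier results of these data known. Named genes are the members, of each list up to 3 called genes of largest change and the gene of highest mean CPM over the 7 tumors, most genes overlapping or nearest to a member, and, for Gas5 and Malat1, the 3 genes of highest correlation.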

Additional observations from a re-analysis of the deposited data

Results flagged for a closer look

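Snhg5 in WDR11OE replicate 3, at 116 CPM, stood apart from the other tumors labelled WDR11OE, which were at 104, 106 and 104 CPM. The gap to the nearest of them took up a share of 0.834 of the range of the group on the log2 scale. Chance sets apart a tumor in about 1 of 20 groups of this kind, and the rows of the 7 members and of human WDR11 were looked at in this way.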

How the results depend on the processing

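No paired analysis was possible because the replicate numbers do not link controls to tumors labelled WDR11OE. Over 22 alternatives, Snhg1 (log2 fold change 0.52 to 1.02), Snhg5 (0.56 to 1.04) and Malat1 (0.29 to 0.89) kept their direction and their side of the threshold. Gas5 was weaker and not called with the trend on GC content removed (0.36, edgeR adjusted p = 0.0598) and with those on GC content and exon length removed (0.40, 0.0539). Snhg12 was weaker and not called with both trends removed (0.25, edgeR adjusted p = 0.091). Without WDR11OE replicates 2, 3 and 4, which leaves 1 tumor in the group, the log2 fold changes of Gas5 (0.75, edgeR adjusted p = 0.0688) and Snhg12 (0.68, 0.0653) were larger than with all tumors, but the calls were lost. Neat1 passed the threshold with the length trend (1.48, edgeR adjusted p = 0.0374) or both trends removed (1.55, 0.0421) and without the 3 tumors with most neuron RNA (2.05, 0.000864). Miat changed sign with limma voom (0.58), with both trends removed (0.0306), without those 3 tumors (0.81) and without control replicate 1 (2.10). Leaving out 1 tumor at a time gave log2 fold changes of 0.35 to 0.89 for Malat1, 0.76 to 1.90 for Neat1, −1.17 to 2.10 for Miat, 0.51 to 0.66 for Gas5, 0.84 to 1.02 for Snhg1, 0.88 to 1.04 for Snhg5 and 0.45 to 0.62 for Snhg12. Members called higher were 3 to 5 and lower 0, and among all genes 1560 to 2986 were higher and 2011 to 2868 lower. With WDR11OE replicates 2, 3 and 4 left out, 2 members, 435 higher genes and 706 lower genes were called. Higher genes were 2093 with no filter, 1942 without the GC trend and 1850 without both trends. With WDR11OE replicates 1 and 2, the tumors that share a title number, counted once, they were 1640. At an adjusted p under 0.01 they were 1549, with 1552 lower. With the GC trend removed, the median log2 fold change was 0.50 for the 4 hosts and −0.0665 for genes of nonsense-mediated decay, and it turned to −0.12 for paraspeckle genes, −0.0342 for astrocyte markers, −0.15 for neuron markers, −0.11 for G3 MB markers and 0.0452 for microglial markers. With TMM without the 100 genes of highest counts it was −0.0166 for G3 MB markers and −0.0212 for neuron markers. The settings without 3 tumors were chosen after seeing the data, and the causes of these shifts were not tested.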
